A study of Mus musculus with 18 samples.

Results

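The genes described here, Asb4, Tmem255a, Aqp1, Mecom, Palmd, Sparcl1 and C1qtnf9, were chosen by their large excess in blood vascular endothelial cells (BEC) over lymphatic endothelial cells (LEC) in mouse embryos. They are 7 of the 19938 genes that the arrays measured through a probe set with a single gene symbol, and all 7 were found. There are 6 groups of 3 arrays, with each cell type sampled at embryonic day 14.5 (E14.5), day 16.5 (E16.5) and day 18.5 (E18.5). Per the labels and the design text, the replicates are independent litters, and BEC and LEC of an age come from matching litters. The labels name the tissue only as embryonic and give the isolation of the cells only by a citation. The sources used here do not state strain, organ or pooling of embryos. The series title places the arrays in a study of a GATA2-bound enhancer and LEC identity.

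BEC line the blood vessels and LEC line the lymphatic vessels, which arise in the embryo largely from veins under the transcription factor PROX1. The lineages therefore share a general endothelial program and differ in a smaller set of genes. The 7 genes have unlike molecular roles. Mecom encodes zinc-finger transcription factors that include EVI1. The gene is counted in the PRDM family and is known from haematopoietic stem cells and the endothelium. Asb4 encodes an ankyrin-repeat adaptor of a cullin ubiquitin ligase, Aqp1 a water channel, Tmem255a a transmembrane protein of poorly known function, and Palmd a relative of the membrane-associated paralemmins. Sparcl1 (hevin) and C1qtnf9 (CTRP9) encode secreted proteins, a matricellular glycoprotein and a paralogue of adiponectin.

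In the GRCm38.p6 annotation all 7 genes are protein coding. Mecom lies at chr3:29951296-30509759, Asb4 at chr6:5383386-5433022, Aqp1 at chr6:55336299-55348555, Tmem255a at chrX:38196573-38252496, Palmd at chr3:116918262-116968952, Sparcl1 at chr5:104079108-104114088 and C1qtnf9 at chr14:60768134-60780869. RefSeq promoters of that build, from 250 bases before to 50 bases after a transcription start, were at hand for 5 of the genes as 7 sequences. Each was searched on both strands for short core letters of factor families known from endothelium, AGGAAG for ETS factors and AGATAA for GATA factors. The cores searched for SOX factors were ACAAAG and, as a further form, ACAATG. The letters AGGAAG stood in 4 of the 7 promoters, 1 each of Asb4, Aqp1, C1qtnf9 and Tmem255a, against 35.4% of all 32851 promoters in the table. ACAAAG stood in 2 of 7 (18.7% of all promoters), AGATAA in 0 of 7 (11.2%) and ACAATG in 0 of 7 (12.6%). The 4 promoters that hold AGGAAG are shown because they pair the genes whose changes with age did not pass the test (Asb4 and Tmem255a) with those that rose from E14.5 to E16.5 in BEC (Aqp1 and C1qtnf9). They are written 5′ to 3′ on the strand of the gene, and capitals mark the matches, with CTTCCT and CTTTGT the forms on the other strand.
Asb4 downstream start, chr6:5390160-5390459, plus strand: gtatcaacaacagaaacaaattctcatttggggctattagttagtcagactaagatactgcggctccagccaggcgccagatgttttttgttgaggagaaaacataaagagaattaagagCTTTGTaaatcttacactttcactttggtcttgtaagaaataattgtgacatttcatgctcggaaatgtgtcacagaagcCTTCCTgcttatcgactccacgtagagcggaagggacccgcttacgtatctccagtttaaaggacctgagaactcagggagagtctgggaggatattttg
Tmem255a, chrX:38252432-38252731, minus strand: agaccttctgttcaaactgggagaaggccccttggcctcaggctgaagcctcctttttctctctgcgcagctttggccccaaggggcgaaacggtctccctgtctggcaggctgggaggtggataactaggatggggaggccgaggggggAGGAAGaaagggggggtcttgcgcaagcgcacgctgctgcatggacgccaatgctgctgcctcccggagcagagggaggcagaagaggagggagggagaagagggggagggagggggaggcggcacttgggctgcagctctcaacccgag
Aqp1, chr6:55336049-55336348, plus strand: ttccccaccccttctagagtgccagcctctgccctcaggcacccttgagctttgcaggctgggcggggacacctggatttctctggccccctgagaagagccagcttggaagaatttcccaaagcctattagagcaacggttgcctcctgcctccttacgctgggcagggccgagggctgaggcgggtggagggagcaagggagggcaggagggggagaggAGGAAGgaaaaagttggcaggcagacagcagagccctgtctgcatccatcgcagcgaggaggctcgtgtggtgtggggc
C1qtnf9, chr14:60767884-60768183, plus strand: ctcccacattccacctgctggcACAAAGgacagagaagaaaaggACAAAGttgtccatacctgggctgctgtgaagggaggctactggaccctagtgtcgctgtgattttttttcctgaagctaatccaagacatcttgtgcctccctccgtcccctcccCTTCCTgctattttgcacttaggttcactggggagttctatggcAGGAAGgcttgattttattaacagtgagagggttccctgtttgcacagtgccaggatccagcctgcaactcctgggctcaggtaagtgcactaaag
The AGGAAG match began 29 bases before the start in Aqp1, 100 in Tmem255a, 50 in Asb4, and 46 and 90 in C1qtnf9. The ACAAAG matches began 130 bases before the start in Asb4, and 228 and 206 in C1qtnf9. A match of letters is a description and was not tied to any binding.

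Values are log2 expression after RMA, so that a difference of 1 is a 2-fold difference, and levels of different genes are not compared because their probe sets differ. Arrays of a group correlated at 0.976 to 0.992. The 6 E18.5 arrays stood apart, with an interquartile range of 3.182 to 3.362 against 3.403 to 3.641 on the 12 earlier arrays, and the step from E14.5 to E16.5, which leaves them out, is therefore given for each of the 7 genes as well. The sources used here do not state if the RMA run took in the arrays of every age at once, which bears on each change to E18.5. Of 16 blood endothelial identity genes, 15 were higher in BEC and 0 in LEC, with Notch1 the exception (0.15 ± 0.07 SE, limma adjusted p = 0.096). All 13 measured lymphatic identity genes were higher in LEC. Of all genes, 19% were called higher and 18.2% lower in BEC. The lists were chosen with earlier results of these data known, so these counts describe the samples and do not test their identity. The mean level of the blood list was 10.05 to 10.50 on BEC arrays and 6.73 to 7.71 on LEC arrays, and that of the lymphatic list was 10.13 to 10.59 on LEC arrays and 6.88 to 8.16 on BEC arrays. A lower level in a group can come from fewer expressing cells or from less RNA per cell, and these cannot be told apart in bulk RNA.

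Over the 3 ages, the BEC minus LEC difference was 4.83 ± 0.16 (SE) for Asb4, 4.79 ± 0.18 for Tmem255a and 4.58 ± 0.17 for Aqp1. It was 4.32 ± 0.14 for Mecom, 4.10 ± 0.14 for Palmd, 3.97 ± 0.13 for Sparcl1 and 3.87 ± 0.08 for C1qtnf9. These values chose the genes and are given without a test. In the order of all genes by this difference they held ranks 1, 2, 4, 6, 8, 11 and 12. The places between them went to Aplnr, Esam, Flt1, Lpar4 and Jam2. C1qtnf9 was the last inside the choice, and the genes just outside it were Kitl (3.79 ± 0.10) and Nrp1 (3.74 ± 0.12). Without the E18.5 arrays the 7 differences were 4.94 for Asb4, 4.76 for Tmem255a, 4.55 for Aqp1, 4.46 for Mecom, 4.26 for Palmd, 4.11 for Sparcl1 and 3.73 for C1qtnf9. At single ages they ran from 3.15 (C1qtnf9 at E14.5) to 4.97 (Asb4 at E16.5), and on the linear scale the LEC mean was 3.19% to 11.28% of the BEC mean. For all 7 genes each BEC array lay above each LEC array of its age at all 3 ages, which 8.05% of all genes did. That share is background only, since the rule used the same difference. The smallest gap between the lowest BEC and the highest LEC array was 2.92, for C1qtnf9 at E14.5.

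**Figure D1:**
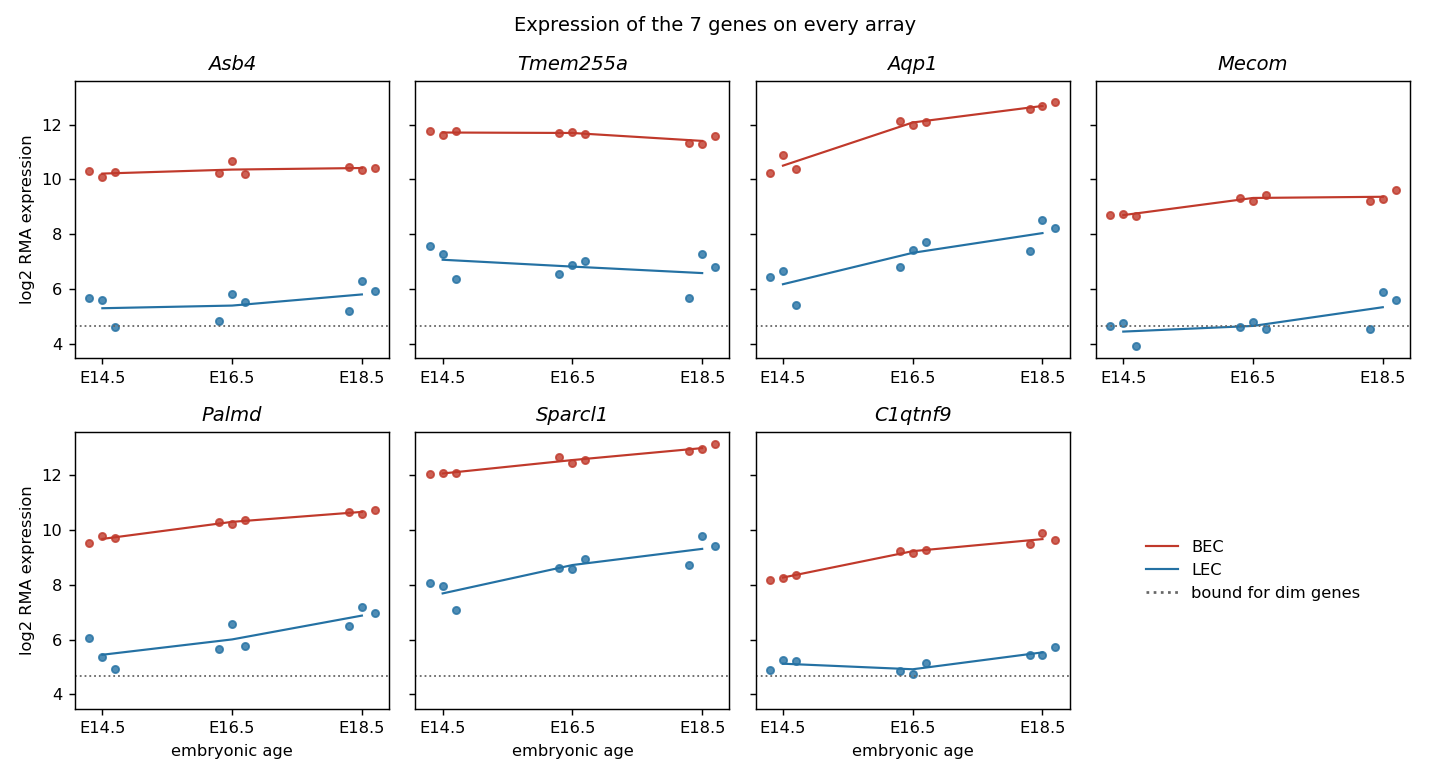
Log2 RMA expression (vertical axis) of each of the 7 genes on each of the 18 arrays by embryonic age, with BEC arrays in red, LEC arrays in blue, lines through the group means of 3 arrays, and a dotted line at the bound for dim genes (4.657). The BEC and LEC arrays do not overlap in any panel, and Mecom alone has LEC arrays on each side of the bound at all 3 ages.

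Whether the genes were restricted to BEC was set against a bound for dim genes, the 95th percentile (4.657) of 1194 olfactory and vomeronasal receptor genes over the 18 arrays. Tmem255a, Aqp1, Palmd, Sparcl1 and C1qtnf9 lay above the bound on 9 of 9 LEC arrays. Asb4 lay above it on 8 of 9 and Mecom on 4 of 9. With the 99th percentile (5.547) as the bound, the counts were 9 for Tmem255a and Sparcl1, 8 for Aqp1, 7 for Palmd, 5 for Asb4, 2 for Mecom and 1 for C1qtnf9. The large excess in BEC was fixed by the choice of the genes and does not bear out the name "restricted to BEC". In LEC, Mecom lay near the level of receptor genes by both bounds, and C1qtnf9 by the higher one. Tmem255a and Sparcl1 kept signal above both bounds on all 9 LEC arrays. Aqp1, Palmd and Asb4 did so on 8, 7 and 5 of 9. Sparcl1 reached 9.79 on a LEC array of E18.5. The LEC group means of the blood identity genes lay above the bound, apart from those of Jam2 and Esm1 at E14.5. Over the 18 arrays of both cell types Jam2 lay above it on 14 and Esm1 on 11. Whether the LEC signal of the 7 genes came from LEC themselves was not tested.

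Mecom, the transcription factor, measured 8.70, 8.73 and 8.65 in BEC at E14.5, 9.31, 9.22 and 9.43 at E16.5, then 9.20, 9.29 and 9.60 at E18.5. In LEC it measured 4.65, 4.74 and 3.93 at E14.5, 4.61, 4.79 and 4.54 at E16.5, then 4.52, 5.87 and 5.60 at E18.5. The BEC arrays of E14.5 lay below those of both later ages, which overlapped, while the LEC arrays of the 3 ages overlapped. From E14.5 to E18.5 Mecom rose in BEC by 0.67 ± 0.25 (SE, limma adjusted p = 0.0498) and in LEC by 0.89 ± 0.25 (adjusted p = 0.00783). The BEC call was lost in 13 of 18 fits that left out 1 array. In LEC the change fell to 0.63 (adjusted p = 0.061) without E14.5 replicate 3 and to 0.62 (adjusted p = 0.060) without E18.5 replicate 2, and the adjusted p was 0.058 with only the groups compared. The step from E14.5 to E16.5 in BEC was 0.63 ± 0.25 (adjusted p = 0.12), and the adjusted p was 0.023 without the E18.5 arrays. In LEC that step was 0.20 ± 0.25 (adjusted p = 0.679). The step from E16.5 to E18.5 in LEC was 0.69 ± 0.25 (adjusted p = 0.0416), a call lost in 6 of 18 fits without 1 array. That call was also lost with only the groups compared (adjusted p = 0.11) and with quantile normalization (0.53, adjusted p = 0.14). A dimmer probe set of Mecom measured 6.27, 6.17 and 6.15 in BEC at E14.5, 6.98, 7.29 and 7.04 at E16.5, then 7.67, 7.26 and 7.89 at E18.5, a change of 1.41 over these ages. It lay below the bound for dim genes on 9 of 9 LEC arrays (3.54 to 4.61), so its LEC change and its BEC minus LEC difference are limited by the floor. The sources used here do not state which transcripts each probe set reads.

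Asb4, the ubiquitin ligase adaptor, measured 10.31, 10.07 and 10.25 in BEC at E14.5, 10.22, 10.67 and 10.18 at E16.5, then 10.46, 10.35 and 10.43 at E18.5. The LEC values were 5.66, 5.61 and 4.61 at E14.5, 4.83, 5.82 and 5.52 at E16.5, then 5.19, 6.27 and 5.93 at E18.5. In BEC the arrays of E16.5 overlapped with those of both other ages, all 9 lay between 10.07 and 10.67, and in LEC the ages overlapped. The change from E14.5 to E18.5 was 0.20 ± 0.28 in BEC (adjusted p = 0.642) and 0.50 ± 0.28 in LEC (adjusted p = 0.17). The step to E16.5 was 0.15 ± 0.28 in BEC (adjusted p = 0.779) and 0.10 ± 0.28 in LEC (adjusted p = 0.88). The 95% interval of the BEC change ran from -0.39 to 0.80, which leaves out a 2-fold change in either direction. Without E18.5 replicate 1 the LEC change was 0.81 (adjusted p = 0.030). BEC exceeded LEC 30.2-fold at the earliest age, 31.3-fold at the middle and 24.5-fold at the latest.

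Tmem255a, of poorly known function, measured 11.76, 11.62 and 11.75 in BEC at E14.5, 11.69, 11.74 and 11.65 at E16.5, then 11.34, 11.30 and 11.57 at E18.5. Its LEC arrays gave 7.55, 7.27 and 6.37 at E14.5, 6.55, 6.87 and 7.02 at E16.5, then 5.65, 7.27 and 6.81 at E18.5. The 3 BEC arrays of E18.5 were the lowest BEC arrays, and the LEC ages overlapped. Among the 7 genes, Tmem255a alone had negative estimates in both cell types from E14.5 to E18.5, at -0.31 ± 0.30 in BEC (adjusted p = 0.50) and -0.49 ± 0.30 in LEC (adjusted p = 0.216), and neither passed the test. The step to E16.5 was -0.02 ± 0.30 in BEC (adjusted p = 0.977) and -0.25 ± 0.30 in LEC (adjusted p = 0.667). Without E14.5 replicate 3 or E18.5 replicate 2 the LEC change was -0.84 (adjusted p = 0.033) or -0.83 (adjusted p = 0.034).

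Aqp1, the water channel, had the largest change with age of the 7 in each cell type. It measured 10.22, 10.89 and 10.39 in BEC at E14.5, 12.12, 12.00 and 12.11 at E16.5, then 12.56, 12.67 and 12.81 at E18.5. In LEC it measured 6.45, 6.66 and 5.40 at E14.5, 6.80, 7.43 and 7.72 at E16.5, then 7.39, 8.51 and 8.21 at E18.5. No BEC array of an age overlapped with another age, and in LEC the arrays of E14.5 lay below all later ones. From E14.5 to E18.5 Aqp1 rose by 2.18 ± 0.30 in BEC (4.53-fold, adjusted p = 1.78e-05) and by 1.87 ± 0.30 in LEC (3.65-fold, adjusted p = 5.75e-05). Most of the BEC change lay in the step from E14.5 to E16.5, at 1.57 ± 0.30 (adjusted p = 0.00288), followed by 0.61 ± 0.30 to E18.5 (adjusted p = 0.127). The earlier step in LEC was 1.15 ± 0.30 (adjusted p = 0.0149), and its call was lost without LEC E14.5 replicate 3 (0.76, adjusted p = 0.11), E16.5 replicate 2 (1.09, adjusted p = 0.050) or E16.5 replicate 3 (0.94, adjusted p = 0.078). Red blood cells carry Aqp1 as well. Of 7 measured erythroid markers 0 rose, 2 fell (Hba-x -1.97, Slc4a1 -0.60) and 5 did not pass the test in BEC from E14.5 to E18.5, and their mean level went from 5.11 to 5.46 on the E14.5 BEC arrays to 4.73 to 4.95 on those of E18.5. In the step to E16.5 0 of the 7 rose and 3 fell there (median -0.39). Of the 7, 4 were higher in BEC than in LEC over the 3 ages, with a median difference of 0.29. At E16.5 and E18.5 the BEC means of Hbb-bh1, Epb42, Klf1 and Rhag lay below the bound for dim genes. Changes of these 4 are therefore limited by the floor. The part of the erythroid markers in the Aqp1 change was not tested. The 5 listed erythroid genes that were not measured include the adult globins Hbb-b1 and Hba-a1.

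Palmd, the paralemmin relative, measured 9.53, 9.79 and 9.70 in BEC at E14.5, 10.29, 10.23 and 10.37 at E16.5, then 10.66, 10.58 and 10.74 at E18.5. The LEC values were 6.06, 5.35 and 4.92 at E14.5, 5.67, 6.57 and 5.77 at E16.5, then 6.49, 7.18 and 6.95 at E18.5. The BEC ages did not overlap, and the LEC arrays of E18.5 lay above those of E14.5. Between E14.5 and E18.5 Palmd rose by 0.98 ± 0.24 in BEC (adjusted p = 0.0043) and by 1.43 ± 0.24 in LEC (adjusted p = 9.96e-05). The step to E16.5 was 0.62 ± 0.24 in BEC (adjusted p = 0.115) and 0.56 ± 0.24 in LEC (adjusted p = 0.15). This SE comes from a common variance for both cell types, while the pooled SD of Palmd was 0.1 in BEC and 0.48 in LEC. With only the groups compared, the BEC step passed the test (limma adjusted p = 0.0069). The later step in LEC, 0.88 ± 0.24 (adjusted p = 0.00964), lost its call without E16.5 replicate 1 (0.71, adjusted p = 0.056) or E18.5 replicate 2 (0.72, adjusted p = 0.050).

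Sparcl1, the matricellular glycoprotein, measured 12.03, 12.08 and 12.08 in BEC at E14.5, 12.65, 12.44 and 12.57 at E16.5, then 12.89, 12.95 and 13.13 at E18.5. Its LEC arrays gave 8.05, 7.94 and 7.06 at E14.5, 8.62, 8.59 and 8.95 at E16.5, then 8.72, 9.79 and 9.42 at E18.5. The BEC ages did not overlap, and the LEC arrays of E14.5 lay below all later ones. Sparcl1 rose from E14.5 to E18.5 by 0.92 ± 0.23 in BEC (adjusted p = 0.00505) and by 1.62 ± 0.23 in LEC (adjusted p = 1.66e-05). In LEC 1.03 ± 0.23 of this lay in the step from E14.5 to E16.5 (adjusted p = 0.00555), when the BEC step was 0.48 ± 0.23 (adjusted p = 0.196). BEC exceeded LEC 20.8-fold at the earliest age, 14.2-fold at the middle and 12.8-fold at the latest.

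C1qtnf9, the adiponectin paralogue, measured 8.18, 8.25 and 8.36 in BEC at E14.5, 9.25, 9.17 and 9.26 at E16.5, then 9.49, 9.89 and 9.62 at E18.5. In LEC it measured 4.89, 5.26 and 5.20 at E14.5, 4.85, 4.73 and 5.16 at E16.5, then 5.43, 5.44 and 5.72 at E18.5. The BEC ages did not overlap, while the LEC arrays of E14.5 and E16.5 did and those of E18.5 lay above them. Between E14.5 and E18.5 C1qtnf9 rose by 1.40 ± 0.14 in BEC (2.65-fold, adjusted p = 2.66e-07) and by 0.41 ± 0.14 in LEC (1.33-fold, adjusted p = 0.0197). The LEC call was lost without E14.5 replicate 1 (0.30, adjusted p = 0.12) or E18.5 replicate 3 (0.32, adjusted p = 0.098), and with quantile normalization over all probe sets (0.32, adjusted p = 0.052). The BEC step from E14.5 to E16.5 was 0.96 ± 0.14 (adjusted p = 0.000206) and the LEC step was -0.20 ± 0.14 (adjusted p = 0.371). From E16.5 to E18.5 the change was 0.44 ± 0.14 in BEC (adjusted p = 0.0184) and 0.62 ± 0.14 in LEC (adjusted p = 0.00177). That BEC call was lost without E16.5 replicate 2 (0.41, adjusted p = 0.063) or E18.5 replicate 2 (0.33, adjusted p = 0.088).

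Counted together, 5 of the 7 genes rose and 0 fell in BEC from E14.5 to E18.5, where 13.3% of all genes rose and 17.3% fell, and the median of the 7 was 0.92 against 0.04 over all genes. In LEC 5 of 7 rose and 0 fell (19.7% and 21.2% of all genes), with a median of 0.89 against 0.04. The genes called were Aqp1, Mecom, Palmd, Sparcl1 and C1qtnf9 in each cell type. The calls of Aqp1, Palmd and Sparcl1 in both cell types and of C1qtnf9 in BEC held in all 18 fits that left out 1 array. Those of Mecom in both cell types and of C1qtnf9 in LEC did not. The LEC arrays of Mecom (3.93 to 5.87) and C1qtnf9 (4.73 to 5.72) lay near the bound for dim genes. In the step from E14.5 to E16.5, without the E18.5 arrays in the comparison, 2 of 7 rose in BEC (Aqp1 and C1qtnf9, 5.1% of all genes) and 2 of 7 in LEC (Aqp1 and Sparcl1, 8.07%). Of all genes called in the BEC step 52.2% rose, and 74.1% with all arrays at a common median, under which the calls of the 7 genes did not move. In the step from E16.5 to E18.5, 1 of 7 rose in BEC (C1qtnf9, 15.8%) and 3 of 7 in LEC (Mecom, Palmd and C1qtnf9, 15.9%). In the fit on all 18 arrays the BEC count of that step thus lay near the background share. Of all genes called in that BEC step 49.1% rose, and 34.1% at a common median. With only the groups compared, Aqp1 (limma adjusted p = 0.0071), Palmd (0.041) and Sparcl1 (0.028) passed in that BEC step as well. Under that setting Mecom (0.0045), Palmd (0.0069) and Sparcl1 (0.013) also passed in the BEC step to E16.5. The LEC call of Mecom from E16.5 to E18.5 was lost there (0.11).

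**Figure D2:**
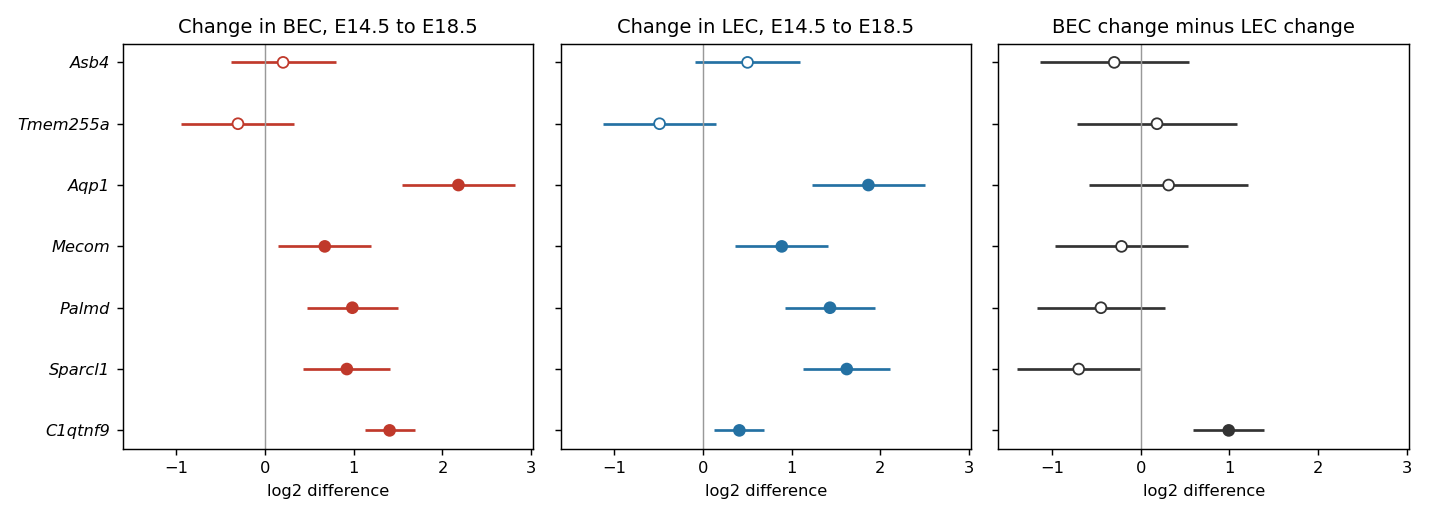
Change in log2 expression from E14.5 to E18.5 (horizontal axis) in BEC, in LEC, and the BEC change minus the LEC change, for each gene with its 95% limma interval. Filled points passed an adjusted p of 0.05, and in the right panel C1qtnf9 (0.99) is the only filled point.

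The change with age differed between the cell types for 1 of the 7 genes from E14.5 to E18.5, where 8.85% of all genes were called in either direction. C1qtnf9 rose by 0.99 ± 0.19 more in BEC than in LEC (adjusted p = 0.00199, 95% interval 0.59 to 1.39), and all 18 fits without 1 array kept the call, with 0.88 to 1.1. For the step to E16.5 it was 1.16 ± 0.19 (adjusted p = 0.00177), again the only one called of 7, where 2.63% of all genes were called (28.2% of them larger in BEC, and 46.1% at a common median). The LEC arrays of C1qtnf9 lay near the bound for dim genes (4.73 to 5.72 against 4.657), where RMA compresses differences. The part of this in its difference of changes was not tested. Sparcl1 leaned the other way, with a difference of -0.70 ± 0.33 (adjusted p = 0.235, interval -1.39 to -0.01), and reached -1.0 (adjusted p = 0.037) without LEC E18.5 replicate 1. The intervals of the others ran from -1.14 to 0.54 for Asb4, -0.72 to 1.08 for Tmem255a and -0.58 to 1.21 for Aqp1. They ran from -0.96 to 0.53 for Mecom and from -1.17 to 0.28 for Palmd. The intervals of Asb4, Tmem255a, Aqp1 and Palmd hold differences of more than 2-fold between the cell types, and that of Mecom nearly 2-fold. A like change in both cell types is thus not shown. The BEC and LEC changes of a gene rest on separate arrays.

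Markers of other cell types moved over the same ages. In BEC 10 of 12 mural cell genes rose from E14.5 to E18.5 (median 1.09, Rgs5 4.19 and Acta2 3.93), and their mean level went from 6.10 to 6.17 on the E14.5 arrays to 7.78 to 7.88 on the E18.5 arrays. Of 11 fibroblast genes 7 rose in BEC (median 0.64, Postn 2.34 and Prrx1 1.80), and of 13 lymphatic identity genes 10 fell (median -0.76), with a mean level of 7.95 to 8.16 at E14.5 and 6.88 to 7.03 at E18.5. Of 15 pan-endothelial genes 6 rose and 5 fell in BEC (median -0.05), and their mean level stayed between 10.17 and 10.35 on all 9 BEC arrays. On the LEC arrays the mean level of this list was lower, at 9.26 to 9.54. The part of that gap in the BEC minus LEC differences of the 7 genes was not tested. For the step from E14.5 to E16.5, in which Aqp1 and C1qtnf9 rose, 5 of 12 mural genes rose in BEC and 0 fell (median 0.37). In that step 5 of 11 fibroblast genes rose (median 0.54) and 9 of 13 lymphatic genes fell (median -0.78). The epithelial list rose in 6 of 10 genes in BEC from E14.5 to E18.5, and 0 fell (median 0.74, Krt5 2.51 and Perp 1.56). Its mean level was 5.12 to 5.33 on the E14.5 arrays and 5.84 to 6.22 on those of E18.5, while from E14.5 to E16.5 0 of its genes rose and 1 fell (median -0.21). The part of these markers in the BEC changes of the 7 genes was not tested.

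In LEC all 12 macrophage genes rose from E14.5 to E18.5 (median 2.79, Cd163 5.47 and F13a1 4.94), and their mean level went from 5.84 to 6.03 on the E14.5 arrays to 8.30 to 8.89 on those of E18.5. On BEC arrays the mean level of the macrophage list was 4.86 to 5.32. The epithelial list rose in LEC in 7 of 10 genes (median 1.81). Of 12 mural genes 4 rose and 3 fell there (median 0.33). Of the 16 blood identity genes 9 rose and 3 fell in LEC (median 0.51, Nrp1 2.10 and Jam2 1.73), beside the 5 of 7 genes that rose there. The mean level of that list was 6.73 to 7.17 on the LEC arrays of E14.5 and 7.33 to 7.71 on those of E18.5. Of the lymphatic list 7 of 13 genes rose and 1 fell in LEC (median 0.37). In the step from E14.5 to E16.5, 11 of 12 macrophage genes rose in LEC (median 2.03), and 0 of 10 epithelial and 0 of 12 mural genes passed the test (medians 0.01 and 0.10). Of the blood identity genes 6 rose and 2 fell in that step (median 0.36), and of the lymphatic list 5 rose and 1 fell (median 0.21). The part of these markers in the LEC changes of the 7 genes was not tested.

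The 7 genes varied more between LEC arrays than between BEC arrays. The pooled SD within groups was 0.09 to 0.22 in BEC and 0.20 to 0.62 in LEC, and it was higher in LEC for 7 of 7 genes, as it was for 54.3% of all genes. The medians over all genes were 0.159 in BEC and 0.166 in LEC. The main fit used a common variance per gene for both cell types. For the 7 genes, the SE of a BEC change therefore tends to be larger than the BEC spread alone would give. The SE of a LEC change tends to be smaller than the LEC spread alone would give. This bears on each adjusted p and interval given for their changes within a cell type. Single LEC arrays carried much of the spread. At E14.5 replicate 3 was the lowest of its group for 6 of the 7 genes, where 33.5% of all genes were lowest on it, and its median deviation over the 7 was -0.63. At E18.5 replicate 1 was the lowest for 7 of 7 (39.0% of all genes), with a median deviation of -0.60. On the same arrays 11 of 16 blood identity genes were lowest in each case, with median deviations of -0.19 and -0.16. Of the 13 lymphatic identity genes 5 were lowest on the E14.5 array and 9 on the E18.5 array, and of the 15 pan-endothelial genes 7 and 9 were.

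**Figure D3:**
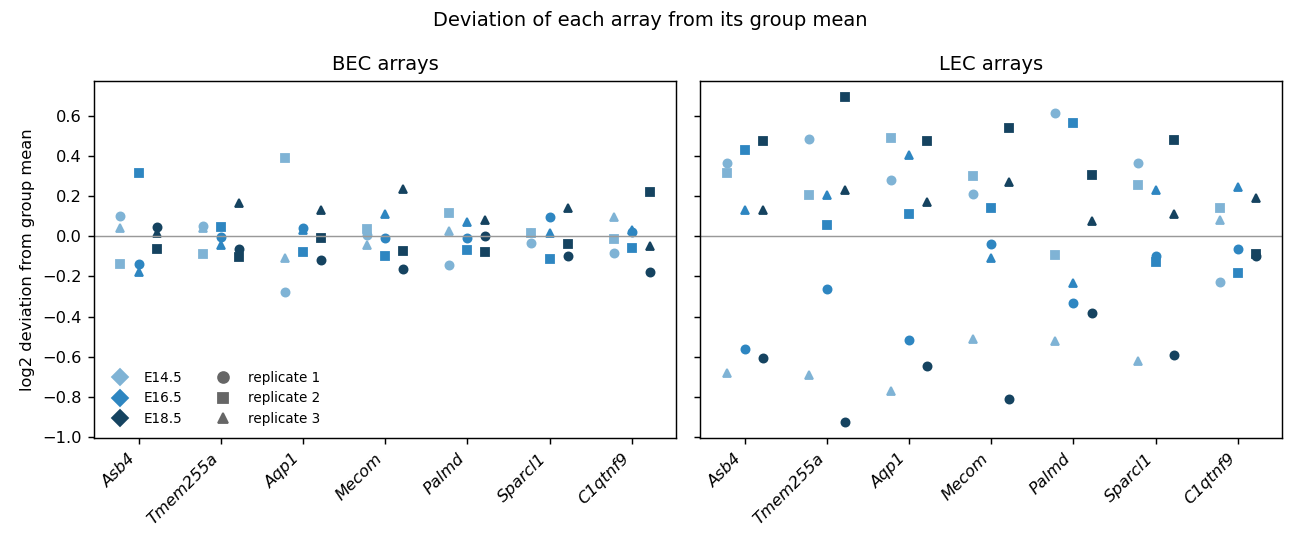
Deviation of each array from its group mean (vertical axis, log2) for the 7 genes, with BEC arrays on the left and LEC arrays on the right, shade giving the age and marker shape the replicate number. The BEC points lie close to 0, while in LEC replicate 3 of E14.5 and replicate 1 of E18.5 lie below 0 for most of the genes, with median deviations of -0.63 and -0.60.

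Relatives of the 7 genes were read from family lists, where BEC minus LEC over the 3 ages was called higher for 19% and lower for 18.2% of all genes, with a median of 0.02. Of these calls 51.1% were higher in BEC, and 62.3% with all arrays shifted to a common median. Of 12 other PRDM genes measured, 4 were higher in BEC and 0 lower. Prdm1, which encodes the repressor BLIMP1, was higher by 2.37 ± 0.10 (adjusted p = 1.8e-13), Prdm16 by 0.91 ± 0.10 (adjusted p = 6.4e-07) and Prdm11 by 0.37 ± 0.07 (adjusted p = 0.00047). From the earliest to the latest age Prdm1 rose in LEC by 0.86 ± 0.17 (adjusted p = 0.00037) while its BEC change was 0.00 ± 0.17 (adjusted p = 0.99), with a difference of the changes of -0.87 (adjusted p = 0.027). In the step to E16.5, none of these passed the test (0.18, 0.07 and -0.11, adjusted p = 0.57, 0.83 and 0.93) in the fit on all 18 arrays. Of 17 other ASB genes, 1 was higher in BEC and 3 were lower, with a median of 0.04. The higher one, named after its values were seen, was Asb14 (0.21 ± 0.07, adjusted p = 0.021), which lay above the bound for dim genes on 0 of 18 arrays. Those with the largest differences were all lower in BEC, Asb17 at -1.64 ± 0.14 (adjusted p = 1.2e-08), Asb13 at -0.44 ± 0.08 (adjusted p = 0.00014) and Asb1 at -0.40 ± 0.07 (adjusted p = 9.5e-05). Asb17 lay above the bound on 6 of 18 arrays. Of 5 partners of ASB proteins, the ligase subunits Cul5, Rnf7, Elob and Eloc and the hydroxylase gene Hif1an, 0 were called higher and 0 lower in BEC, with a median of 0.10. From E14.5 to E18.5 Rnf7, Elob and Hif1an fell in BEC and in LEC, Rnf7 by 0.88 and 0.85, Elob by 0.84 and 0.72, and Hif1an by 0.35 and 0.66. In the step to E16.5 none of the 6 changes passed the test, with Rnf7 at 0.33 in BEC and -0.17 in LEC (adjusted p = 0.25 and 0.61), Elob at -0.28 and -0.10 (adjusted p = 0.13 and 0.66), and Hif1an at -0.14 and -0.16 (adjusted p = 0.45 and 0.43).

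Among the membrane proteins, Tmem255b, the paralogue of Tmem255a, was higher in BEC by 1.75 ± 0.07 (adjusted p = 1.7e-13). It rose in BEC by 1.87 ± 0.12 from E14.5 to E18.5 (adjusted p = 2.9e-09) and changed by 0.17 ± 0.12 in LEC (adjusted p = 0.30), a difference of 1.70 ± 0.17 (adjusted p = 3.8e-06), whereas neither change of Tmem255a passed the test. In the step to E16.5 Tmem255b rose by 0.70 in BEC (adjusted p = 0.0014) and changed by -0.12 in LEC (adjusted p = 0.61), a difference of 0.82 (adjusted p = 0.014). Of 11 other aquaporins 3 were higher in BEC and 2 lower, with a median of 0.12. Aqp7, a channel for water and glycerol, was higher by 2.92 ± 0.14 (adjusted p = 1.2e-12), Aqp11 by 0.91 ± 0.10 (adjusted p = 6.9e-07), and Aqp9 was lower (-0.36 ± 0.09, adjusted p = 0.0033). Aqp7 rose by 3.08 ± 0.23 in BEC and by 1.18 ± 0.23 in LEC from E14.5 to E18.5, with a difference of 1.90 ± 0.33 (adjusted p = 0.00084). In the step to E16.5 it rose by 2.24 in BEC (adjusted p = 1.2e-05) and changed by 0.24 in LEC (adjusted p = 0.58), a difference of 2.00 (adjusted p = 0.0021). Aqp7 lay above the bound for dim genes on 14 of 18 arrays. Aqp9 lay above the bound for dim genes on 2 of 18 arrays. Of the 3 other paralemmins Pakap was higher in BEC (0.76 ± 0.08, adjusted p = 8.6e-08), Palm was lower (-0.31 ± 0.07, adjusted p = 0.0016) and Palm3 did not pass the test (0.08 ± 0.07).

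Among relatives of the secreted members, 3 of 7 SPARC family genes were higher in BEC and 2 lower, with a median of 0.12. Sparc, a matricellular protein that binds collagen, was higher by 1.92 ± 0.05 (adjusted p = 4.4e-16), Spock2 by 0.97 ± 0.13 (adjusted p = 4.2e-06) and Fstl1 by 0.69 ± 0.07 (adjusted p = 1.8e-07). Sparc fell in LEC by 0.58 ± 0.09 from E14.5 to E18.5 (adjusted p = 2.9e-05) and by 0.34 in the step to E16.5 (adjusted p = 0.013), while Sparcl1 rose there. Of 8 measured genes of the C1QTNF family and adiponectin, 2 were higher in BEC and 2 lower, with a median of -0.05. C1qtnf1 was higher by 1.21 ± 0.08 (adjusted p = 2.5e-10), C1qtnf12 was lower (-0.68 ± 0.08, adjusted p = 1.9e-06) and C1qtnf7 was lower (-0.30 ± 0.10, adjusted p = 0.021), the last above the bound for dim genes on 1 of 18 arrays. All 3 genes for receptors of adiponectin and C1QTNF9 were higher in BEC. Cdh13, which encodes T-cadherin, was higher by 1.68 ± 0.09 (adjusted p = 8e-12), Adipor2 by 0.33 ± 0.06 (adjusted p = 8.4e-05) and Adipor1 by 0.32 ± 0.07 (adjusted p = 0.00074). With age Cdh13 rose by 1.59 ± 0.15 in BEC and by 2.58 ± 0.15 in LEC, of which 0.72 and 1.72 lay in the step to E16.5 (adjusted p = 0.0068 and 6.6e-07). Adipor2 rose in BEC by 0.96 ± 0.10 (adjusted p = 4.5e-07) and changed by -0.20 ± 0.10 in LEC (adjusted p = 0.12), with a difference of 1.15 ± 0.14 (adjusted p = 1.9e-05). Its step to E16.5 was 0.59 in BEC (adjusted p = 0.00078) and -0.02 in LEC (adjusted p = 0.93), a difference of 0.61 (adjusted p = 0.019). Without the E18.5 arrays the counts of higher and lower genes were 4 and 0 for PRDM, 2 and 3 for ASB, 2 and 1 for aquaporins, 3 and 1 for SPARC, 1 and 3 for C1QTNF and 2 and 0 for the receptors. The paralemmin counts did not move.

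**Figure D4:**
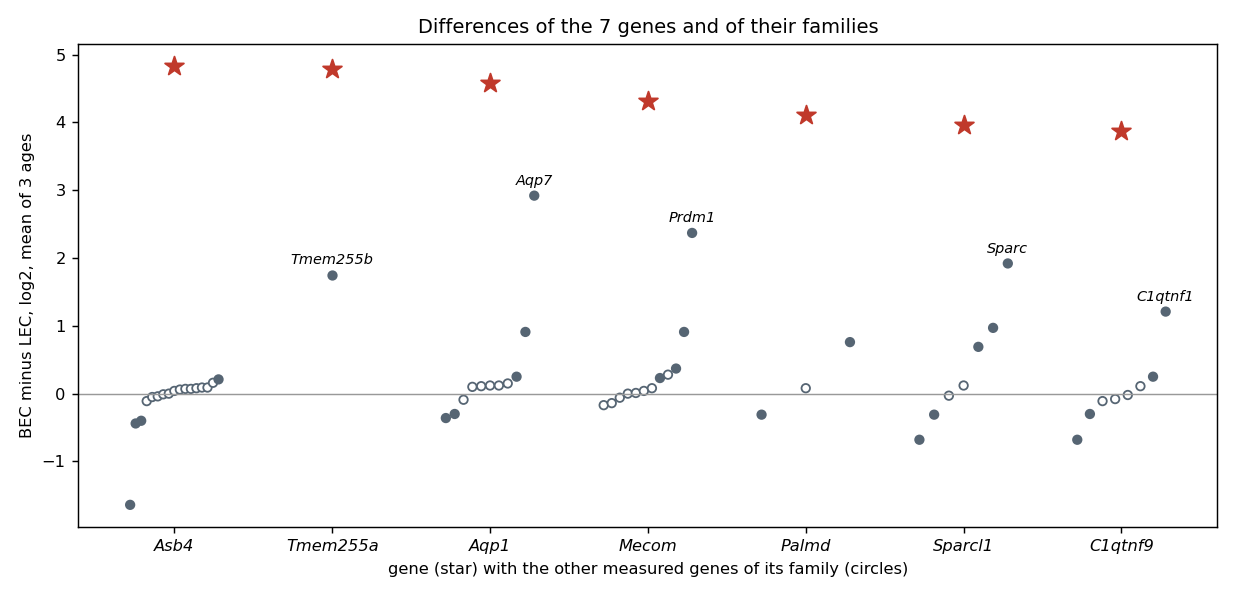
BEC minus LEC difference in log2 expression over 3 ages (vertical axis) for each of the 7 genes (stars, the values that chose them) and for the other measured genes of its family (circles, filled where the adjusted p was under 0.05). Each star lies above all circles of its family, and the highest circles are Aqp7 (2.92) and Prdm1 (2.37).

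For each of the 7 genes, the 3 most alike genes were taken by the root mean square (RMS) difference of log2 profiles over the 18 arrays, after centring each gene on its own mean. The measure contains the BEC minus LEC difference that chose the members, and the profiles share arrays, so it is a description. Asb4 was nearest to Tmem255a (0.37), the apelin receptor gene Aplnr (0.38) and Mecom (0.39). Tmem255a was nearest to Aplnr (0.32), Asb4 (0.37) and the lysophosphatidic acid receptor gene Lpar4 (0.45). Aqp1 lay farther from its neighbours, the junction gene Jam2 (0.44), Sparcl1 (0.54) and Palmd (0.55). Mecom was nearest to the VEGF receptor gene Flt1 (0.24), the adhesion gene Esam (0.30) and Palmd (0.32). Palmd was nearest to Flt1 (0.28), Sparcl1 (0.29) and Mecom (0.32), and Sparcl1 to Clec14a (0.27), Flt1 (0.29) and Palmd (0.29). C1qtnf9 had no other member among its nearest genes, which were Akr1c14 (0.30), the KIT ligand gene Kitl (0.36) and the protocadherin gene Pcdh19 (0.37). The neighbours differed in their changes with age. From E14.5 to E18.5 the BEC change was -0.18 ± 0.32 for Aplnr (adjusted p = 0.73), -0.34 ± 0.23 for Lpar4 (adjusted p = 0.30) and 0.74 ± 0.17 for Flt1 (adjusted p = 0.0024), and the LEC change of Flt1 was 1.05 ± 0.17 (adjusted p = 5.7e-05). In the step to E16.5 the changes of Flt1 did not pass the test (0.48 in BEC and 0.32 in LEC, adjusted p = 0.083 and 0.25).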

How the data were processed

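Each of 18 BEC and LEC samples was measured on an Affymetrix Mouse Gene ST array. Per the submitters' processing notes, the authors obtained the deposited log2 values by RMA in oligo 1.54.1, which subtracts background, normalizes the arrays and summarises probes, so that differences of dim genes are compressed. Of 35556 probe sets, 23410 were in the platform annotation and 21789 had 1 symbol. The brightest per gene left 19938 genes, with no filter. With limma 3.58.1 (R 4.3.3), a model of the 6 group means was fitted on the 18 arrays together (eBayes without trend, 12 residual and 6.11 prior degrees of freedom, two-sided), adjusted by Benjamini-Hochberg over all genes within a contrast and called at an adjusted p under 0.05. The fit was tested on simulated data. Arrays give no read depth, and their number limits the precision.

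The genes and lists were chosen with earlier results of these data known. Named relatives are the 3 with the largest BEC minus LEC difference per list, named markers the 2 with the largest change, and neighbours the 3 nearest profiles. Replicate numbers were not taken to pair BEC with LEC in the main fit, since it is not stated whether they mark the matching litters. Deviations of same-numbered samples correlated at -0.11 to 0.13, over 0.1 in 1 of 9 pairs. Alternatives were array weights, a common median, quantile normalization, the groups compared alone, the mean of a gene's probe sets, a filter on dim genes, replicate blocks, other bounds and leaving out each array.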

Additional observations from a re-analysis of the deposited data

Results flagged for a closer look

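C1qtnf9 was the only one of the 7 genes whose change with age differed between the cell types by the test of the difference itself. It rose by 0.99 more on the log2 scale in BEC than in LEC from E14.5 to E18.5 and by 1.16 more from E14.5 to E16.5 (limma adjusted p = 0.00199 and 0.00177). In the earlier step the BEC arrays did not overlap between the ages, while the LEC arrays did. The LEC arrays of C1qtnf9 lay between 4.73 and 5.72, near the bound for dim genes of 4.657.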

How the results depend on the processing

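No called result reversed. Of 1008 age changes of the 7 genes from fits without 1 array, 939 kept their direction and side of the threshold, 30 lost a call, 11 gained one and 28 that had not passed the test changed sign. Of 427 under the other alternatives 404 kept both, 4 lost a call, 12 gained one and 7 changed sign. These 7 were 0.06 for the BEC change of Tmem255a to E16.5, and -0.02 and -0.03 for the BEC changes of Asb4 and Mecom from E16.5 to E18.5, all at a common median. With array weights the LEC change of Asb4 to E16.5 was -0.07, and with quantile normalization its difference of changes was -0.04. With the mean of both Mecom probe sets its LEC change to E16.5 was -0.07 and its difference of changes to E18.5 was 0.49. Without 1 array the estimates that changed sign ran, for the difference of changes to E18.5, from -0.60 to 0.04 for Asb4, -0.28 to 0.53 for Tmem255a, -0.01 to 0.70 for Aqp1 and -0.62 to 0.05 for Mecom. For that to E16.5 they ran from -0.23 to 0.39 for Asb4, -0.01 to 0.58 for Tmem255a and -0.25 to 0.35 for Palmd. To E16.5 the BEC changes ran from -0.01 to 0.24 for Asb4 and -0.07 to 0.01 for Tmem255a, and the LEC changes from -0.25 to 0.38 for Asb4 and -0.05 to 0.35 for Mecom. From E16.5 to E18.5 the BEC changes ran from -0.03 to 0.21 for Asb4 and -0.07 to 0.12 for Mecom, and the LEC change of Tmem255a from -0.58 to 0.23. Without 1 array each, the counts of genes called ran from 850 to 2238 for the BEC change from E14.5 to E16.5 (1945 with all arrays), from 1758 to 3090 for the LEC change (2749) and from 310 to 589 for their difference (524). With array weights these 3 counts were 4022, 4544 and 1215. With only the groups compared the count for the difference was 839. E14.5 and E16.5 arrays alone were an alternative chosen after seeing the data. For the difference this is the same fit, so its count of 839 is no further result, and the BEC count was 3318. With the 99th percentile as bound, 2 genes, not 5, lay above it on all LEC arrays. The mean of both Mecom probe sets, of which the dimmer lies below the bound on all LEC arrays, gave 3.57 for BEC minus LEC. The cause of these moves was not tested.

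The replicate numbers did not clearly pair the samples, as 9 of 18 samples correlated best with their own number among 3 candidates. With 3 arrays per group this check cannot decide whether the numbers mark matching litters. With the replicate number as a random block (consensus correlation 0.015) the counts were 7459 for BEC minus LEC, 6090, 8149 and 1803 for the BEC change, the LEC change and their difference from E14.5 to E18.5, 1944, 2751 and 540 from E14.5 to E16.5, and 6443 and 6855 for BEC and LEC from E16.5 to E18.5. As a fixed block they were 7175 for BEC minus LEC, 1570 for the difference to E18.5 and 448 for that to E16.5. The block moved 0 of 70 calls of the 7 genes.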
